A study of Ovis aries with 18 samples.

Results

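The miRNAs of 2- vs. 6-month-old sheep testes are described here by their abundance, their families and their difference between the ages. The members were chosen by a count threshold alone: a mature miRNA was kept when it had 10 or more counts in at least 3 of the 6 libraries of these ages. This kept 986 of the 7146 miRNAs of the deposited table. Small RNA came from left testes of rams of the Small Tail Han sheep breed, with 3 different rams at 2 months and 3 at 6 months of age and 1 library per ram. The labels give no treatment and no altered allele for any ram, and testes were removed by surgery and frozen in liquid nitrogen. The mRNA of the same rams was counted in libraries of its own, and 3 further rams of 12 months of age entered only the estimate of spread. RNA came from whole intratesticular tissue, so a lower level can come from fewer cells of a type or from less RNA per cell, which cannot be told apart in bulk samples. The rams of each age are numbered 1 to 3 in the labels, and values of single rams are given in that order.

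A mature miRNA is an RNA of about the length of the sequences shown here that is cut from a hairpin precursor and guides an Argonaute protein to messenger RNAs. Pairing rests largely on the seed, bases 2 to 8 counted from the 5′ end, so miRNAs that share a seed form a family with overlapping targets. Each hairpin has a 5p and a 3p arm, and usually one arm accumulates. In the mammalian testis, miRNAs of the miR-34/miR-449 family are known from meiotic and post-meiotic germ cells, miR-202 from the gonad and miR-221 and miR-222 from spermatogonia.

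The 10 seed families with the most counts held between 44.34% and 52.13% of the counts of a library. Their leading members are shown in the order of the families' mean level, because the abundance ranks turn on them. The sequences are those of the deposited table, written 5′ to 3′ in DNA letters with the seed in capitals. The table names a chromosome for a predicted miRNA but gives no start, end or strand.
miR-34b-5p, predicted on chromosome 15: aGGCAGTGtaattagctgattg
miR-34c-5p, predicted on chromosome 15: aGGCAGTGtagttagctgattg
miR-449a-5p, predicted on chromosome 16: tGGCAGTGtattgttagctgg
miR-34a-5p, predicted on chromosome 12: tGGCAGTGtcttagctggttg
oar-miR-16b: tAGCAGCAcgtaaatattgg
miR-322-5p, predicted on chromosome X: cAGCAGCAattcatgttttg
miR-145-5p, predicted on chromosome 5: gTCCAGTTttcccaggaatccc
oar-let-7a: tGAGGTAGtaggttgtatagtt
oar-miR-19b: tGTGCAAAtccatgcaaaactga
oar-miR-125b: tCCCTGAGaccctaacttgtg
rno-miR-202-5p: tTCCTATGcatatacttct
oar-miR-30d: tGTAAACAtccccgactgg
oar-miR-23a: aTCACATTgccagggatttcca
oar-miR-99a: aACCCGTAgatccgatcttg

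Names that begin with oar are known sheep miRNAs of miRBase, the public register of miRNAs. Names that begin with rno, mmu or hsa are rat, mouse or human miRNAs found among reads that did not map to the sheep. A predicted miRNA was found by the authors in the sheep genome Oar_v3.1, and carries the name of a rat, mouse or human miRNA where its sequence was matched to one. It is written here by that name, or by its number in the table when it had no match.

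The 986 members were 114 of the 153 known sheep miRNAs of the table, 254 predicted miRNAs with a match, 486 predicted miRNAs without a match and 132 rat, mouse or human miRNAs. Known sheep miRNAs held from 36.55% to 45.33% of the counts of a library, and predicted miRNAs with a match from 32.87% to 38.49%. Predicted miRNAs without a match, the largest class by number, held from 11.14% to 20.33%. They differed from the known sheep miRNAs in sequence as well, with a median length of 18 nt and a median GC content of 55.9% against 22 nt and 42.9%. A first base T, which Argonaute proteins favour, was found in 31.3% of them and in 44.7% of the known sheep miRNAs.

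The libraries held 575449, 2356020 and 1944556 counts at 2 months and 604545, 720396 and 295282 at 6 months. At these depths, 3 counts correspond to between 1.21 and 4.90 CPM in 5 of the libraries and to 9.77 CPM in 6-month replicate 3. CPM are the counts of a miRNA per 1000000 counts of the library after upper-quartile scaling, and they are not divided by the length of the miRNA. The greater depth at 2 months entered the choice of members. Of the 136 miRNAs that reached the threshold in exactly 3 libraries, 62 did so in the 3 libraries of 2 months and 0 in the 3 libraries of 6 months. These 136 had a median of 77 counts summed over the 6 libraries, and the 216 that reached it in exactly 2 libraries and were left out had a median of 47. A total of 603 members reached it in all 6 libraries.

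One library of 2 months stood apart from the others of its age. The mRNA levels of the spermatid markers TNP1, TNP2, ACRV1 and ODF1, which encode a pair of nuclear transition proteins, an acrosome protein and a protein of the sperm tail, summed to 2410, 12.1 and 119 CPM at 2 months and to 2800, 3750 and 2630 CPM at 6 months. The first ram of 2 months therefore lay near the 6-month-old rams. PRM1 and PRM2, which encode protamines, were not in the table. The 7 Sertoli cell markers summed to 326, 1270 and 826 CPM at 2 months and to 498, 169 and 225 CPM at 6 months. Spermatocyte markers, 5 in all, summed to between 330 and 627 CPM in the 6 libraries, and the epididymis markers CRISP1 and ADAM7 summed to at most 0.512 CPM. Of the 12-month libraries in the fit, 2 stood apart as well: the spermatid markers summed to 8.88 CPM in replicate 3, and the epididymis markers to 882 CPM in replicate 1. Rams that differ in maturity and labels that were exchanged cannot be told apart from these values. The labels were kept, and the means and SD at 2 months are those of the rams so labelled. For miRNAs and families that turn on 2-month replicate 1, values without it are given as well.

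miR-145-5p of chromosome 5, a smooth muscle miRNA, was the most abundant miRNA at both ages. Its level was 35950, 48920 and 53260 CPM at 2 months and 70160, 36580 and 75140 CPM at 6 months. The means were 46040 ± 9005 CPM and 60630 ± 20980 CPM (SD, n = 3), and the rams of the ages overlapped. oar-miR-19b of the miR-17/miR-92 cluster, known for cell proliferation, had rank 2 at 2 months and rank 3 at 6 months with 39940 ± 4145 and 52110 ± 15620 CPM. rno-miR-202-5p had rank 3 at 2 months and rank 6 at 6 months. Its level varied widely within each age, with 13800, 43180 and 38370 CPM at 2 months and 44770, 27820 and 12970 CPM at 6 months. oar-miR-16b, which restrains the cell cycle, had 26510 ± 5205 and 31640 ± 12410 CPM. oar-let-7a, the leading member of a family that marks differentiated cells, had 17520 ± 6065 and 21820 ± 9655 CPM.

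**Figure D1:**
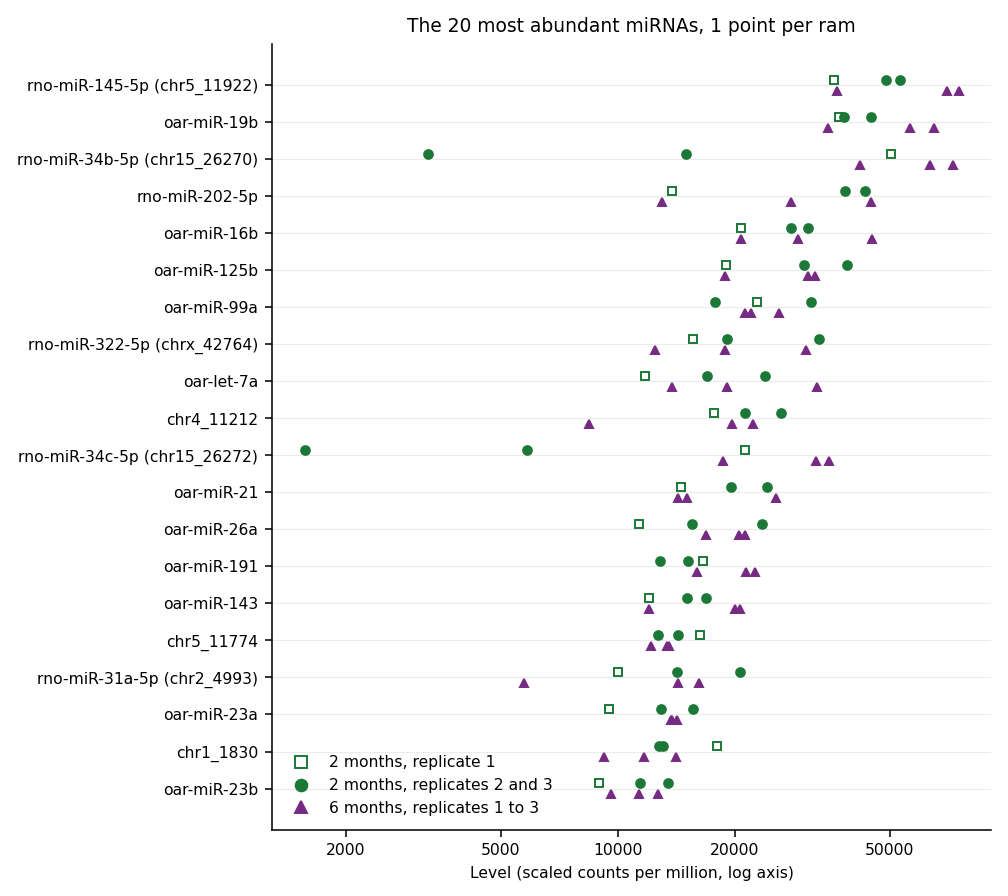
Levels of the 20 miRNAs with the highest mean over the 6 rams, in CPM on a log axis, with 1 point per ram (open squares, 2-month replicate 1; filled circles, 2-month replicates 2 and 3; triangles, 6-month rams). The ages overlap in every row, and miR-34b-5p and miR-34c-5p spread most at 2 months, from 3252 to 50320 CPM and from 1568 to 21210 CPM.

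Of the 20 most abundant miRNAs of each age, 19 were the same. miR-503-5p of the X chromosome was among them only at 2 months and miR-34c-5p only at 6 months. The lists of the first 10, 50 and 100 shared 8, 45 and 93 miRNAs, and 13 miRNAs were among the first 20 in all 6 rams. The likeness of single rams overlapped within and between the ages. Across the 986 miRNAs, which are not independent replicates, Spearman's rho was 0.822 to 0.941 between rams of the same age (6 pairs, median 0.9) and 0.79 to 0.931 between rams of different ages (9 pairs, median 0.87). The lowest rho within an age, 0.822, was that of 2-month replicates 1 and 2, while 2-month replicate 1 had rho of 0.921 with 6-month replicate 1. Between the means of the ages rho was 0.932, and 0.893 without 2-month replicate 1.

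The 20 most abundant included 3 predicted miRNAs without a match. The 17-nt miRNA numbered chr4_11212 had rank 9 at 2 months and rank 15 at 6 months, with 21710 ± 4281 and 16800 ± 7345 CPM. The 22-nt miRNA chr5_11774 had rank 17 at both ages with 14430 ± 1808 and 13050 ± 732.4 CPM. The 19-nt miRNA chr1_1830 went from rank 16 to rank 19 with 14590 ± 2944 and 11670 ± 2458 CPM. They are shown because they rank beside let-7a and miR-21 without a name of their own. They were not compared here with ribosomal, transfer or other small RNA, so whether they are miRNAs or fragments of such RNA was not tested, and their ranks hold only as ranks of the deposited table.
chr4_11212: gAGGCGGGggtcggctc
chr5_11774: gGAATACTgggtgctgtaggct
chr1_1830: aCTCTTAGtggtggatcac

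**Figure D2:**
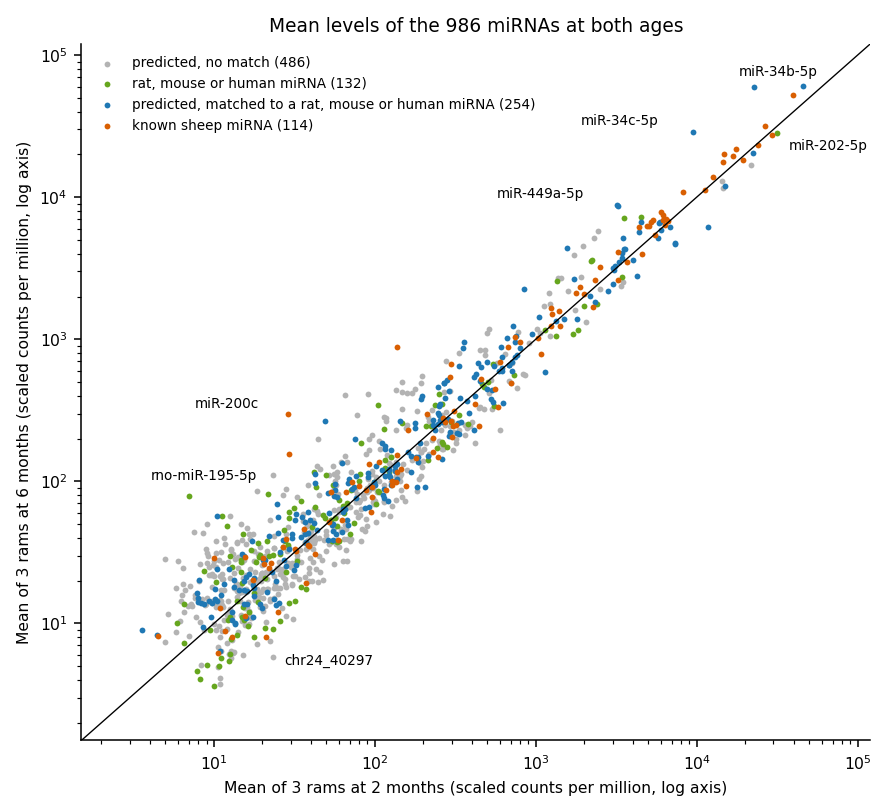
Mean CPM of the 3 rams at 2 months (x) and at 6 months (y) on log axes for all 986 miRNAs, coloured by kind, with the line of equal means. miR-34b-5p, miR-34c-5p and miR-449a-5p lie above the line among the abundant miRNAs, and the scatter widens below about 100 CPM, where 1 count weighs more.

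Counts were concentrated in few miRNAs at both ages. The 10 most abundant miRNAs of a library held 34.05%, 36.19% and 34.89% of its counts at 2 months and 36.82%, 37.09% and 37.26% at 6 months. The ages did not overlap, with means of 35.05 ± 1.08% and 37.06 ± 0.221% (SD, n = 3, difference 2.01 percentage points). The two-sided exact permutation p was 0.1, the smallest that 3 against 3 rams can give, so this design cannot pass 0.05. The first miRNA alone held 6.107 ± 0.845% and 7.381 ± 0.381% (exact permutation p = 0.1), and the first 100 held 85.4 ± 1.68% and 85.91 ± 1.02% (exact permutation p = 0.7). All 153 known sheep miRNAs together held 41.57 ± 4.52% and 40.51 ± 2.03% (exact permutation p = 0.8). The 95% Wilson interval of the known sheep share of 2-month replicate 1 was 36.44% to 36.69%, far narrower than the spread between rams. Intervals and the level of 3 counts cover counting error only, because reads amplified by PCR are not independent molecules.

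Between the ages, 0 miRNAs were higher and 0 were lower at 6 months past both thresholds, a Benjamini-Hochberg adjusted p under 0.05 in edgeR's quasi-likelihood test and a change of over 1.5-fold (0.0% of 986 in each direction). The smallest adjusted p was 0.717. At an unadjusted p under 0.05 there were 60 miRNAs (6.09%), of which 20 were higher (2.03%) and 40 lower (4.06%) at 6 months. DESeq2 also called 0, with 77 miRNAs at an unadjusted p under 0.05. All 6-month-old rams lay above all 2-month-old rams for 44 miRNAs (4.46%) and below them for 93 (9.43%). The count threshold entered these tallies, because the 62 members with 10 counts only in the 2-month libraries gave 17 of the 93 and 9 of the 40. The other 924 members gave 44 above and 76 below without overlap, and 20 higher and 31 lower at an unadjusted p under 0.05. The median log2 fold change was 0.05. It was -0.18 when libraries were scaled by their totals only, a shift that applies to every fold change given here. Of the 20 most abundant miRNAs, 10 had a positive and 10 a negative log2 fold change, and for 10 of them the sign changed in at least 1 of the 18 fits that used the same members. These 20 are therefore given by level and not by direction.

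**Figure D3:**
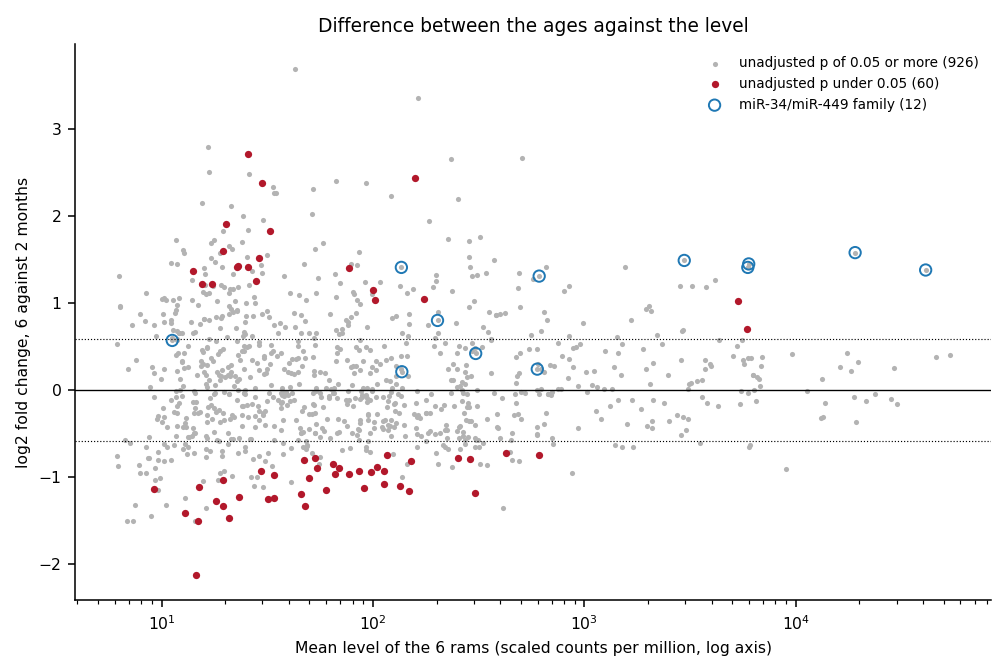
Log2 fold change of 6- against 2-month-old rams (y) over the mean level of the 6 rams in CPM (x, log axis) for the 986 miRNAs, with dotted lines at 1.5-fold in either direction. The 60 miRNAs at an unadjusted p under 0.05 (red) lie mostly at low levels, and 7 of the 12 miRNAs of the miR-34/miR-449 family (blue rings) lie between 1.31 and 1.58.

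Of the miRNAs with the smallest unadjusted p, rno-miR-132-3p and miR-211-5p had names. rno-miR-132-3p, known from neurons and from steroid-producing cells, had 150.9, 98.33 and 90.69 CPM at 2 months and 161.7, 249.8 and 289.8 CPM at 6 months. The groups did not overlap, and the log2 fold change was 1.05 ± 0.352 (SE, unadjusted p = 0.0147, adjusted p = 0.717). miR-211-5p of chromosome 18, known from melanocytes, had 55.59, 38.04 and 34.53 CPM at 2 months and 114.3, 129.8 and 91.17 CPM at 6 months. Its log2 fold change was 1.40 ± 0.527 (SE, unadjusted p = 0.0246, adjusted p = 0.717), also without overlap. The other 3 of the 5 smallest p in this direction belonged to chr21_37525, chr15_26392 and chrx_42853, predicted miRNAs without a match at mean levels of 13.97 to 61.97 CPM at 2 months and 37.55 to 137.5 CPM at 6 months. Their log2 fold changes were 1.41, 1.15 and 1.25. chr21_37525 and chr15_26392 share their whole mature sequence with the members chr21_37526 and chr15_26391, and miR-211-5p shares most of its sequence with miR-204-5p. Reads could be assigned to either of such miRNAs, so these counts are uncertain.

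In the other direction the 5 smallest p belonged to chr24_40297, chr22_38261, chr3_7509, chr20_35508 and miR-3960. The first 2 are among the 62 members that reached 10 counts only in the 2-month libraries, a choice that favours a lower level at 6 months, and their levels are given without a fold or a test. chr24_40297, a 19-nt predicted miRNA of chromosome 24 without a match, had 19.85, 27.92 and 22.05 CPM at 2 months and 4.90, 2.791 and 9.768 CPM at 6 months, values at or below what 3 counts give in those libraries. chr22_38261 had 27.79, 17.8 and 21.22 CPM and then 4.90, 11.16 and 6.512 CPM. chr3_7509, which reached the threshold at both ages, had 184, 145.3 and 133.1 CPM at 2 months and 73.5, 75.35 and 68.38 CPM at 6 months (log2 fold change -1.08 ± 0.292, SE). chr20_35508 had 211.8, 164.3 and 175.6 CPM and then 81.67, 93.49 and 81.4 CPM (log2 fold change -1.10 ± 0.313, SE). For both, the rams of an age were close together and the ages did not overlap. miR-3960 of chromosome 8 had a log2 fold change of -1.16 ± 0.355 (SE), and the adjusted p was 0.717 for these 3 miRNAs. Of the 5 that were lower, 4 had a GC content of 82.4% to 95.2%, beside a median of 52.1% over all members. Of these 4, chr24_40297 and chr22_38261 (89.5% each) are among the 62 members, and chr3_7509 (82.4%) and miR-3960 (95.2%) are not. Among the 5 smallest p that were higher, chr21_37525 and chr15_26392 also lay above this median, with 70.6% and 73.7%, and the others lay below it. Whether GC content goes with the direction was not tested. The sequences are shown so that this base content can be seen.
rno-miR-132-3p: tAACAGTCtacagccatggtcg
miR-211-5p: tTCCCTTTgtcatcctttgcc
chr24_40297: tGGCCGGCggcggcggcga
chr3_7509: cGCGCGAAgcggggctg
chr20_35508: aACTGAGGccatgatta
miR-3960: gGGGGCGGcggcggcggcgac
chr22_38261: aCCCCCCGccgcccctcgc

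The predicted miRNAs without a match held most of the small p. Of the 60 miRNAs at an unadjusted p under 0.05, 47 belonged to them, 36 lower and 11 higher at 6 months, which is 9.67% of them beside the 6.09% of all members. The 114 known sheep miRNAs held 1 (0.877%), the 254 predicted miRNAs with a match 5 (1.97%) and the 132 rat, mouse or human miRNAs 7 (5.30%). None of these passed the adjusted threshold. The 62 members with 10 counts only in the 2-month libraries are in these tallies. They gave 9 of the 40 lower miRNAs and 0 of the 20 higher ones. The classes were not counted without them, so how far the count threshold adds to the lower miRNAs of a class was not tested.

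Without 2-month replicate 1, the count past both thresholds stayed at 0 (0.0%) and the smallest adjusted p was 0.433. The miRNAs at an unadjusted p under 0.05 then numbered 104, of which 77 were higher (7.81%) and 27 lower (2.74%) at 6 months, so the balance of directions turned with this library.

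The miR-34/miR-449 family had 12 members. Its log2 fold changes were positive in 12 of 12, from 0.21 to 1.58 with a median of 1.34 beside 0.05 over all 986 (1.01 beside -0.18 with library totals only). The 12 are not independent miRNAs. Both arms of several hairpins and copies of miR-449a-5p with the same sequence are among them, and miR-34b and miR-34c share a transcript. miR-34b-5p had 50320, 3252 and 15000 CPM at 2 months and 41960, 72590 and 63510 CPM at 6 months. The first ram of 2 months lay among the 6-month-old rams and the other 2 far below them. The means were 22860 ± 24500 and 59350 ± 15740 CPM (SD, n = 3), the rank went from 7 to 2, and the log2 fold change was 1.38 ± 0.91 (SE, adjusted p = 0.717 by edgeR).

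miR-34c-5p, made from the same transcript as miR-34b, had 21210, 1568 and 5853 CPM at 2 months and 18650, 34820 and 32330 CPM at 6 months. It went from rank 21 to rank 5 of the means, with a log2 fold change of 1.58 ± 0.889 (SE, adjusted p = 0.717). miR-449a-5p is listed in 2 copies on chromosome 16 that have the same mature sequence and nearly equal values, so its counts are split between them. One copy had 6789, 683.8 and 2134 CPM at 2 months and 5748, 13760 and 6795 CPM at 6 months, and its rank went from 62 to 22. The log2 fold changes of the copies were 1.45 and 1.41 with SE of 0.858 and 0.853, and 2.64 and 2.59 without 2-month replicate 1 (SE 0.882 and 0.876). The 3p arm of miR-34b put the rams in the same order as its 5p arm, with 3218, 310 and 1158 CPM and then 2996, 6066 and 4047 CPM, and went from rank 93 to 52 with a log2 fold change of 1.49 ± 0.884 (SE), and of 2.57 ± 0.948 without that ram.

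miR-34a-5p has the same seed as these miRNAs but is made from another chromosome, and it is known from many cell types as a target of p53. It had 405, 623.1 and 619.4 CPM at 2 months and 504.7, 725.6 and 713.1 CPM at 6 months. Its log2 fold change was 0.24 ± 0.392 (SE), and 0.06 ± 0.431 without 2-month replicate 1, and in contrast to miR-34b-5p the first ram of 2 months was the lowest of the 6. hsa-miR-449b-5p, rno-miR-449c-5p and mmu-miR-449b had mean levels of 126.6 to 261.2 CPM at 2 months and 147.3 to 350.9 CPM at 6 months.

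**Figure D4:**
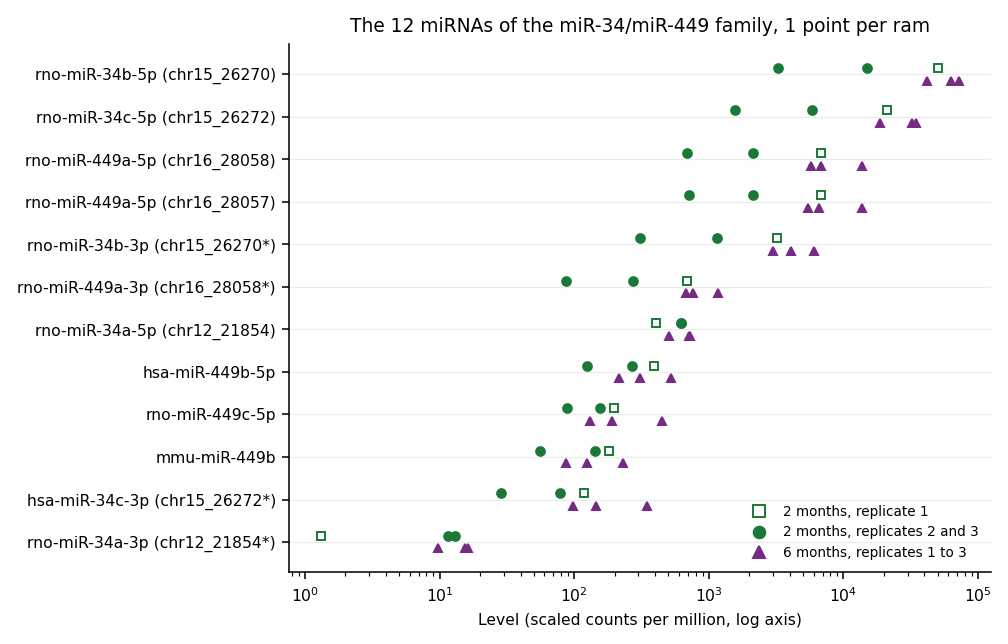
Levels of the 12 miRNAs of the miR-34/miR-449 family in CPM on a log axis, with 1 point per ram and an asterisk for the less abundant arm of a hairpin. For miR-34b, miR-34c and miR-449a the open square of 2-month replicate 1 lies with the triangles of the 6-month rams, whereas for miR-34a-5p all 6 rams lie between 405 and 725.6 CPM.

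Summed over the 37 rows of the table with these names, the family held 11.87%, 0.7925% and 3.444% of the counts at 2 months and 7.77%, 14.31% and 12.08% at 6 months. The means were 5.369 ± 5.78% and 11.39 ± 3.33% (SD, n = 3, two-sided exact permutation p = 0.2), and 2.118% at 2 months without replicate 1. Without that ram, every 6-month-old ram lay above both of the others for 7 of the 12 members, beside 18.4% of all 986 miRNAs. The 12 members are not independent, as stated above, so this tally is not one of separate miRNAs. The ranks at 2 months were then 20 for miR-34b-5p and 55 for miR-34c-5p. miR-34b-5p had a log2 fold change of 2.70 ± 0.931 (SE, unadjusted p = 0.0185, adjusted p = 0.433) and miR-34c-5p one of 2.95 ± 0.886 (SE, unadjusted p = 0.00948, adjusted p = 0.433). The ram left out had the highest share of the family at 2 months, so its omission raises the fold and cannot count as support for a difference. The family median was 2.07 without it and 0.88 without 2-month replicate 2. The spermatid markers, given above, were also high in the libraries with a high share of the family and low in the other 2 libraries, and their part in the result was not tested.

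Summing all miRNAs with a seed gives 790 seed families with 10 or more counts in at least 3 of the 6 libraries, of the 4347 seeds of the table. Most were small, with 1 member in 629 families and 2 or more in 135. Past both thresholds, 0 were higher and 0 lower at 6 months (0.0% each), with a smallest adjusted p of 0.68 in edgeR's quasi-likelihood test. At an unadjusted p under 0.05 there were 53 (6.71%), of which 14 were higher (1.77%) and 39 lower (4.94%). The ages did not overlap for 36 seed families that were higher (4.56%) and 95 that were lower (12.0%) at 6 months. The count threshold and the greater depth at 2 months entered the choice of seed families as they did that of the miRNAs. How far they add to the lower tallies was not counted. Without 2-month replicate 1, 0 were called (0.0%), and at an unadjusted p under 0.05 there were 58 higher (7.34%) and 29 lower (3.67%).

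The seed GGCAGTG of miR-34/miR-449 had rank 5 among the seed families at 2 months and rank 1 at 6 months. The 20 rows of the table with this seed, 8 of them members, summed to 85350, 7149 and 28280 CPM at 2 months and to 75260, 134200 and 102300 CPM at 6 months. The log2 fold change was 1.37 ± 0.843 (SE, adjusted p = 0.691), and 2.55 without 2-month replicate 1 (SE 0.859, adjusted p = 0.41). The other 9 of the 10 most abundant seed families kept to within 3 places of their rank, with log2 fold changes from -0.20 to 0.34. The seed AGCAGCA of miR-15/miR-16 went from rank 1 to rank 2 with 60280 ± 16460 and 63480 ± 27200 CPM. The seed GAGGTAG of let-7, shared by 11 members, went from rank 3 to rank 5 with 43460 ± 15170 and 48460 ± 19360 CPM.

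The 227 members whose names belong to 27 of the 29 families listed by name are described by role. A summed level is over every row of the table with the names of a family, members or not. Of the 27 families, 4 had summed levels that did not overlap between the ages, all 4 higher at 6 months, and the other 23 overlapped. Of all 790 seed families, whose choice the count threshold entered, 4.56% were higher and 12.0% lower without overlap. The 4 were miR-17/miR-92, miR-30, miR-221/miR-222 and miR-126, of which only miR-126 stayed without overlap when libraries were scaled by their totals only. At an unadjusted p under 0.05 the families held 5 of the 227 miRNAs, beside 6.09% of all members.

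**Figure D5:**
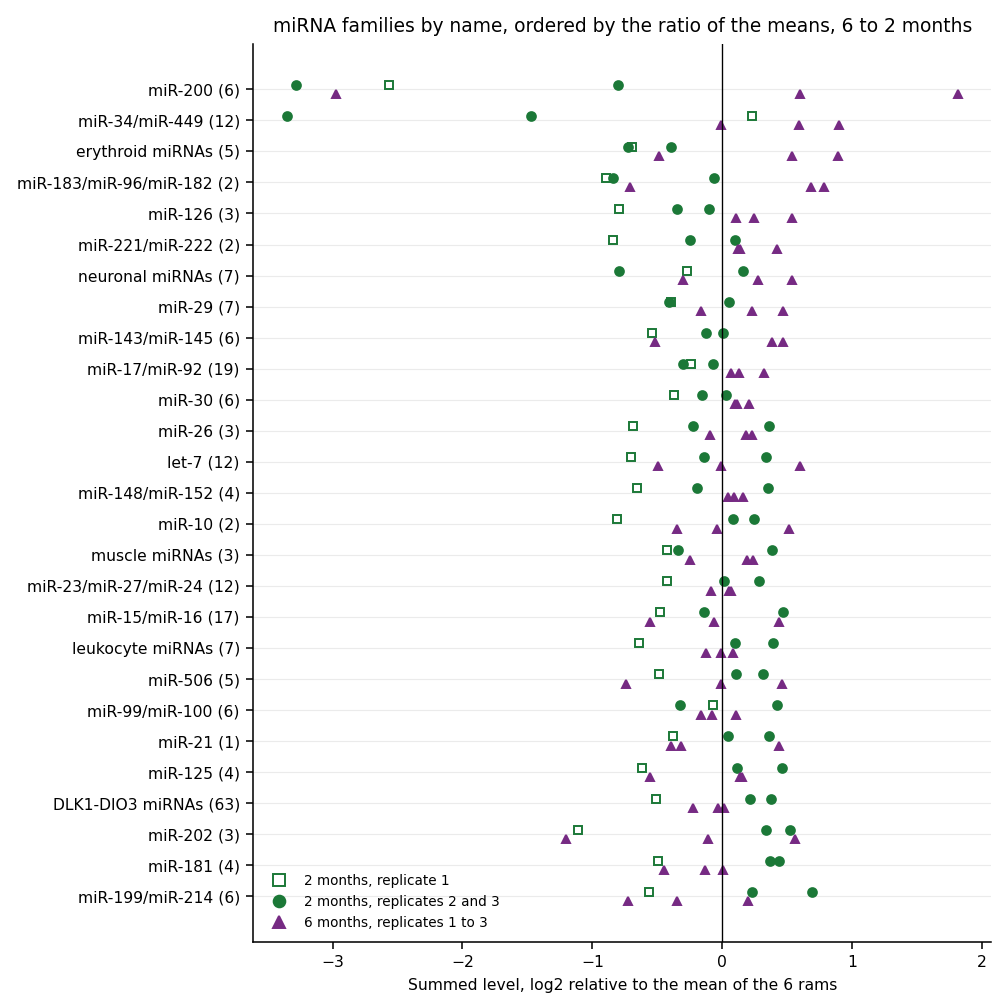
Summed level of each of the 27 families in each ram, as log2 relative to the mean of the 6 rams, with the number of members in brackets and families ordered by the ratio of the means. The miR-200 and miR-34/miR-449 families spread widely within an age, and the rams of the ages are separate for miR-126, and for miR-221/miR-222, miR-17/miR-92 and miR-30 on this scale only.

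Among families known from germ cells and proliferation, miR-17/miR-92 summed to 61270, 68910 and 58540 CPM at 2 months and 78900, 75930 and 90140 CPM at 6 months. The ages were apart on this scale, oar-miR-19b made up most of the sum, and the 19 members gave 16 positive and 3 negative log2 fold changes with a median of 0.31. Scaling by library totals lowered that median to 0.08. miR-221/miR-222, which repress KIT and keep mouse spermatogonia undifferentiated, summed to 701.5, 1344 and 1057 CPM and then to 1369, 1680 and 1384 CPM. Only 2 members carried these names, and their log2 fold changes were 0.48 and 0.59 with SE of 0.629 and 0.697. The let-7 family, with 12 members, summed to 28140, 57790 and 41550 CPM at 2 months and 45540, 69630 and 32540 CPM at 6 months. let-7 held 4.964 ± 1.19% and 4.974 ± 1.8% of the counts (exact permutation p = 1.0), a difference far smaller than the spread between rams.

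The miR-15/miR-16 family, with 17 members, summed to 72010 ± 24550 CPM at 2 months and 71570 ± 24510 CPM at 6 months. Within it, miR-503-5p of the X chromosome went from rank 19 to 39, with 5988, 20420 and 8651 CPM and then 9049, 3004 and 6577 CPM (log2 fold change -0.91 ± 0.811, SE). The miR-30 family, abundant in many tissues, was also apart on the upper-quartile scale and overlapped with library totals only, with 21720, 28780 and 25230 CPM and then 32460, 30200 and 30500 CPM, and 3 of its 6 members were higher without overlap, beside 4.46% of all 986. The miR-506 family, X-linked and known from testis, had 5 members and summed to 2138 ± 573.7 and 2087 ± 819.7 CPM. The families miR-371/miR-302, which marks pluripotent and early germ cells, and miR-122, which marks liver, had 0 members.

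Among families that mark somatic cells, miR-126 of endothelium was apart between the ages in 3 of 3 members, beside 4.46% of all 986. rno-miR-126a-3p had 3343, 5434 and 4717 CPM at 2 months and 6932, 7203 and 7759 CPM at 6 months. Its log2 fold change was 0.70 ± 0.311 (SE, unadjusted p = 0.0497, adjusted p = 0.717), and it went from rank 42 to 26. The first ram of 2 months was the lowest of the 6. Without it the median of the 3 members was 0.52 in place of 0.69, and 0 of them had an unadjusted p under 0.05. The other 2 members, rno-miR-126b and rno-miR-126a-5p, had log2 fold changes of 0.69 and 0.68. However, the sequence of each matches the reverse complement of the other over 16 nt, and their counts were nearly equal in every library. The endothelial mRNAs PECAM1, VWF and CDH5 summed to 45.1, 145 and 101 CPM at 2 months and 56.3, 29.9 and 52.5 CPM at 6 months in the same rams. Their highest values were in 2-month replicates 2 and 3, whereas miR-126 was highest in the 6-month-old rams.

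The 5 members of the erythroid list had positive log2 fold changes in 5 of 5, with a median of 1.07 (0.84 with library totals only). They are not independent, because both arms of miR-144 are among them and the rows of miR-486 match each other's reverse complement. Those rows were near the floor, with 0, 17 and 1 counts and 4, 13 and 0 counts at 6 months, mostly from replicate 2. rno-miR-451-5p, the main miRNA of red blood cells, had 3288, 4042 and 3235 CPM at 2 months and 9985, 7581 and 3787 CPM at 6 months, with overlap (log2 fold change 1.02 ± 0.412, SE, unadjusted p = 0.0345, adjusted p = 0.717). rno-miR-144-5p, made from the same transcript, had 39.71, 61.1 and 29.12 CPM and then 71.87, 113 and 87.91 CPM, without overlap (log2 fold change 1.07 ± 0.49, SE). The globin mRNAs HBB and HBA1 were not in the mRNA table. In the leukocyte list, miR-223-3p of the X chromosome, a miRNA of neutrophils and monocytes, had 46.32, 73.24 and 27.87 CPM at 2 months and 40.84, 533.1 and 227.9 CPM at 6 months. Its log2 fold change of 2.44 ± 1.05 (SE) came from 2 of the 3 rams. The median of the 7 leukocyte members was -0.02.

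miR-143/miR-145, made mainly by smooth muscle cells, had positive log2 fold changes in 6 of 6 members, and the sums overlapped with 61270 ± 11470 and 79530 ± 26460 CPM. The mesenchymal family miR-199/miR-214 had negative ones in 6 of 6 and summed to 12740 ± 5172 and 9348 ± 3059 CPM. miR-181 had negative ones in 4 of 4, and miR-125 also in 4 of 4. These tallies are not of independent miRNAs, since 4 of the 6 miR-199/miR-214 members and 4 of the 6 miR-143/miR-145 members are versions of miR-214-3p and miR-145-5p that share most of their sequence, and 2 of the 4 miR-181 members have the same sequence. The medians of these families kept their sign with library totals only, at 0.45, -0.60, -0.69 and -0.55. None of these members had an unadjusted p under 0.05. Without 2-month replicate 1, every 6-month-old ram lay below both other 2-month-old rams for 5 of 6 miR-199/miR-214, 4 of 4 miR-181 and 3 of 4 miR-125 members, beside 18.3% of all 986. With all rams the ages were apart in this direction for 0, 1 and 0 of these members. The median log2 fold changes of miR-199/miR-214, miR-181 and miR-125 were -0.40, -0.49 and -0.35 with all rams. They were -0.10, -0.24 and -0.02 without 2-month replicate 2, so they turn on which 2-month ram is left out. The Sertoli, Leydig and peritubular mRNA markers also had higher sums in 2-month replicates 2 and 3 than in the other 4 libraries. The sums were 1270 and 826, 641 and 793, and 1770 and 1190 CPM against at most 498, 435 and 512 CPM. The Leydig markers STAR (8.92 CPM in 2-month replicate 2) and CYP11A1 (14.7 CPM in 2-month replicate 3) went against this. In 6-month replicate 1 they had 16.2 and 15.7 CPM. The part of the mRNA markers in these miRNA values was not tested.

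The miR-200 family marks epithelium and varied widely between rams of an age. The family, with 6 members, summed to 149.6, 507 and 91.11 CPM at 2 months and to 112.7, 1338 and 3106 CPM at 6 months, so that 2 of the 6-month-old rams were high and 1 was as low as the 2-month-old rams. oar-miR-200c had 25.15, 56.24 and 4.992 CPM and then 4.90, 339.1 and 553.5 CPM (log2 fold change 3.36 ± 2.24, SE, adjusted p = 0.717).

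The imprinted DLK1-DIO3 region, whose miRNAs are expressed from the maternal chromosome, gave 63 members, of which 62 were known sheep miRNAs. The region summed to 9878, 18290 and 16320 CPM at 2 months and 14240, 12070 and 13790 CPM at 6 months, with the first ram of 2 months the lowest and the other 2 the highest of the 6. The log2 fold changes were positive in 26 and negative in 37 with a median of -0.15. Without 2-month replicate 1, every 6-month-old ram lay below both other 2-month-old rams for 27 of the 63, beside 18.3% of all 986. With all rams this held for 1 of the 63, and without 2-month replicate 2 the median was 0.05. oar-miR-379-5p had 353.4, 987.7 and 775.9 CPM and then 596.2, 414.4 and 468.9 CPM. Its log2 fold change was -0.52 ± 0.474 (SE) and the ages overlapped, again with the first ram of 2 months lowest. The first ram of 2 months also lay among the 6-month-old rams for oar-miR-409-3p, with 238.2, 572.2 and 528.3 CPM at 2 months and 256.4, 244.2 and 237.7 CPM at 6 months (log2 fold change -0.86 ± 0.488, SE). Its other arm, oar-miR-409-5p, had a log2 fold change of -0.51 ± 0.369 (SE), oar-miR-665-3p one of -0.81 ± 0.65 and oar-miR-495-3p one of -0.55 ± 0.468, and the ages overlapped in each. Without 2-month replicate 1 the log2 fold changes were -0.84 ± 0.45 for oar-miR-379-5p, -0.80 ± 0.328 for oar-miR-409-5p and -0.86 ± 0.447 for oar-miR-495-3p, with adjusted p of 0.484, 0.433 and 0.466. These 5 are described because the study discusses them or measured them by qRT-PCR, without tying each to 1 comparison.

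Among miRNAs of the first 100 of either age, the 5 largest gains in rank were those of both copies of miR-449a-5p, miR-34b-3p, miR-192-5p and chr3_7742. miR-192-5p of chromosome 21, known from gut and kidney epithelium, had 532.1, 1538 and 482.2 CPM at 2 months and 519.4, 925.2 and 5356 CPM at 6 months, so its step from rank 119 to 82 came from 1 ram (log2 fold change 1.41 ± 1.09, SE, and -0.24 without that ram). chr3_7742, a 19-nt predicted miRNA without a match, had 4122, 121.4 and 912.3 CPM and then 3081, 2686 and 6082 CPM. As for miR-34b-5p, 2-month replicate 2 was the lowest and replicate 3 the next, and its log2 fold change was 1.20 ± 1.17 (SE). Without 2-month replicate 1, the highest of its age, it was 2.93 ± 1.26 (SE, unadjusted p = 0.0467, adjusted p = 0.433). The whole mature sequence of chr3_7742 is shared with the member chr3_7741, so the counts of each are uncertain.

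The 5 largest losses in rank were those of miR-3120-5p, miR-214-3p, chr5_11800, the less abundant arm of chr24_39365 and mmu-miR-574-3p. miR-214-3p of chromosome 12, a mesenchymal miRNA, went from rank 24 to 50 with 4635, 10210 and 7226 CPM and then 6169, 2929 and 4972 CPM (log2 fold change -0.65 ± 0.487, SE). miR-3120-5p went from 23 to 49 with nearly the same values, 4584, 10190 and 7337 CPM and then 6251, 2983 and 5050 CPM (log2 fold change -0.63 ± 0.488, SE). The sequences are shown because the reverse complement of one holds 16 nt or more of the other, so their counts cannot be taken as 2 measurements.
miR-214-3p: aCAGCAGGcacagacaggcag
miR-3120-5p: cCTGTCTGtgcctgctgtac
For chr5_11800 it was likewise not tested whether it is a fragment of another small RNA. The other 3 had log2 fold changes of -0.46, -0.65 and -0.66 (mmu-miR-574-3p -0.99 ± 0.405 without 2-month replicate 1), and only the arm of chr24_39365 was without overlap, with 1759 to 2344 CPM at 2 months and 827.5 to 1563 CPM at 6 months.

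Shared sequence limited other members as well. The whole mature sequence was shared with another member for 132 of the 986, which held 916 unique sequences. A total of 35 members formed 22 pairs in which 16 nt of one matched the reverse complement of the other, among them oar-miR-299-3p and oar-miR-299-5p. Counts of such members are uncertain, because reads could be assigned to either.

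In most hairpins the same arm led throughout. Both arms were members for 189 hairpins, and the same arm was ahead in all 6 libraries for 151 of them. In the known sheep hairpin oar-mir-30a the 5p arm was ahead by 5.23 to 6.03 on the log2 scale, and in oar-mir-376c the 3p arm by 5.92 to 7.34. The log2 ratio of the arms was higher in every 6-month-old than in every 2-month-old ram for 6 of the 189 hairpins and lower for 9. Beside this, the levels of 4.46% of all 986 miRNAs were higher and of 9.43% lower without overlap. These are unlike measures, because levels depend on the scaling and ratios of arms within a library do not. Whether these few hairpins stand out was not tested. Of the 20 known sheep hairpins, only oar-mir-409 was among the 6. Its log2 ratios of 5p to 3p were -0.87, -1.21 and -0.74 at 2 months and -0.46, -0.73 and -0.63 at 6 months.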

How the data were processed

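The authors deposited whole-number counts per mature miRNA and per gene without normalization. Per the study's methods, small RNA reads were assigned first to sheep miRBase entries, then with miRDeep to the genome Oar_v3.1, and last with BWA to entries of other mammals. RNA of 13 to 34 nt had been selected. The mRNA counts (9644091 to 10937143 per library) were turned into CPM to check the tissue label. All value columns belonged to a sample (0 without one).

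Members and lists were chosen with earlier results of these data known. The study's EB-Seq package was not used. The 9 miRNA libraries were fitted in 1 model with edgeR 4.0.16 (R 4.3.3), with upper-quartile scaling, the quasi-likelihood test and the contrast 6 minus 2 months. DESeq2 1.42.0 was an alternative. Seed families were sums over the whole table by bases 2 to 8 and were scaled separately. Families were summed by the number in the name. Arm ratios used a prior count of 0.5. The test scripts were run on simulated data first. Python 3.11.15, pandas 2.3.3, numpy 2.4.6, scipy 1.17.1 and matplotlib 3.10.9 made the summaries, exact permutation tests and plots.

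miRNAs were named by rule: the 20 most abundant, the 5 with the smallest p in each direction, the 5 largest gains and losses in rank among the first 100 of either age, 6 known sheep miRNAs that the study discusses or measured by qRT-PCR, and known sheep members of the families. The other names in the miR-34/miR-449, miR-126, miR-222, erythroid, miR-223 and miR-503 results, and the examples of arms and shared sequences, were chosen after their values were seen. The labels do not say how rams were related, and p-values measure only the spread between these rams.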

Additional observations from a re-analysis of the deposited data

How the results depend on the processing

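The counts of 0 miRNAs and 0 seed families past both thresholds in each direction held under TMM scaling, DESeq2 size factors, library totals only, DESeq2, edgeR's own filter, a fit of only the 6 libraries, no fold threshold, equal sequences summed (miRNAs only), and with each of the 9 rams left out (0 to 0). The exception was no filter on low counts, where 4 miRNAs and 1 seed family were higher and 0 lower. These were miR-122-5p of chromosome 23, with 202 counts in 6-month replicate 2 and 0 and 1 in the other 6-month-old rams, its seed GGAGTGT, and hsa-miR-7-2-3p, hsa-miR-6835-3p and hsa-miR-3529-5p, with 33, 31 and 32 counts in that ram alone. That setting also moved the median log2 fold change from 0.05 to -0.84, and with it the log2 fold changes of miR-34a-5p, rno-miR-126a-3p, rno-miR-126b and rno-miR-126a-5p became -0.69, -0.2, -0.18 and -0.2. With 2-month replicate 1 and 12-month replicates 1 and 3 left out together, chosen after seeing the data, 0 were called, the smallest adjusted p was 0.0978, and 165 miRNAs had an unadjusted p under 0.05 beside 60. Without each of the 2- and 6-month-old rams that number ranged from 27 (without 2-month replicate 3) to 104 (without 2-month replicate 1), and was 31 without 2-month replicate 2 and 36 without 6-month replicate 2.

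With each of the 6 rams left out, the first 20 of both ages shared 18 to 20 miRNAs. The difference in the share of the 10 most abundant ranged from 1.51 to 2.59 percentage points, that of known sheep miRNAs from -3.56 to 0.827, that of miR-34/miR-449 from 3.73 to 9.27 and that of let-7 from -0.966 to 0.805. The known sheep share changed sign without 2-month replicate 2 (0.827) and without 6-month replicate 3 (0.0889), and the let-7 share without 2-month replicate 1 (-0.625) and without 6-month replicate 2 (-0.966). The log2 fold change of miR-34b-5p ranged from 0.86 to 2.7, that of miR-34c-5p from 1.08 to 2.95, that of the seed GGCAGTG from 0.87 to 2.55 and that of miR-192-5p from -0.24 to 2.16. The causes were not tested.

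The numbers 1 to 3 are used at both ages for different rams. Correlating the deviations of equally numbered rams from the mean of their age gave -0.167, 0.209 and -0.151, so the numbers do not pair the samples. In the fit with a replicate block, 0 miRNAs and 0 seed families were called, and 43 miRNAs and 38 seed families had an unadjusted p under 0.05, beside 60 and 53.

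Depth limits low miRNAs most in 6-month replicate 3, where 3 counts are 9.77 CPM.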
